A study of Mus musculus with 43 samples.

Results

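Distal H3K27ac peaks at both ages were the peaks of the first P7 wild-type (WT) H3K27ac list that overlapped, by at least 1 bp, a peak of the second P7 list and of both P14 lists, and whose summit lay more than 3000 bp from every GENCODE vM21 transcript start. The first P7 list held 21974 peaks. Of these, 6047 (27.5%) overlapped a peak in all other 3 H3K27ac lists, and 908 of the 6047 were distal. These 908 regions, called members here, made up 4.13% of the list, against 5139 peaks found in all 4 lists within 3000 bp of a start. Overlap with all 4 lists was met by 8.20% of the 11074 distal peaks of the first list and by 47.1% of its peaks closer to a start. The H3K27ac values chose the members, so they are described below without a test.

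The study profiled germ cells of mice on a C57BL/6J background by CUT&Tag and RNA-seq. CUT&Tag, in which an antibody guides a transposase to chromatin carrying a histone mark, was run on C57BL/6J WT testis cells at P7 and P14 (7 and 14 days after birth) for H3K27ac, H3K4me3, H4R3me2a, H3R2me2a, H3R8me2a, H4R3me1 and H4R3me2s, with 2 or 3 lists per mark and age. The cells came from tubules digested with collagenase and trypsin and passed through a strainer, a step meant to remove Sertoli cells. For P14, the titles name spermatogonia while the cell type label reads spermatocyte. H4R3me2s was also profiled in 2 P7 samples of the Prmt1 mutant (dKO), which carries Ddx4-CreERT2 and Prmt1 lox/lox alleles and received tamoxifen. Cre is driven there from a germline gene and the deletion removes internal exons, so a gene-level count checks the genotype only in part. RNA was measured at P7 in 3 WT and 3 dKO libraries that carry a spermatogonia label although the protocol describes total RNA of whole testis, and by Smart-seq2 in 2 control and 2 dKO libraries of GFP-sorted spermatogonia. The methods describe the sorted controls as heterozygous Ddx4-GFP-CreERT2 Prmt1 +/lox mice, and the labels mention tamoxifen for WT and knockout samples alike. The sorted controls are called WT below, as in the titles. The RNA libraries held between 12396317 and 18547078 counts. The sequencing depth of the peak lists is unknown. The paper calls the sorted libraries biological replicates, but the labels do not tie any replicate to an animal, so p-values measure the spread between these samples, part of which may be technical.

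Acetylation of histone H3 at lysine 27 marks active promoters and active enhancers, the distal elements that raise transcription of genes at a distance. H3K4me3 is characteristic of active promoters and is usually low at enhancers. Marks ending in me2a are asymmetric dimethylation of arginine, of which PRMT1 deposits that on H4R3 and PRMT6 that on H3R2, whereas symmetric H4R3 dimethylation (H4R3me2s) is deposited mainly by PRMT5. In the postnatal testis, spermatogonia lie beside Sertoli cells, which feed and instruct them through secreted factors, and the interstitium holds the steroid-producing Leydig cells.

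Windows of 300 bp around the summits of 5 members show the range of sequence in the set. They are given 5′ to 3′ on the plus strand of GRCm38 (RefSeq genome sequence), named by their nearest protein-coding gene. Capitals mark matches, on either strand, to the motifs spelled out with the motif results below. The Fshr, Clec12b and Myc windows (chr17:89177803-89178102, chr6:129373045-129373344 and chr15:62328341-62328640) stand for members with few other marks. Fos (chr12:85485936-85486235) stands for GC-rich members with H3K4me3. Scaf8 (chr17:3010257-3010556) stands for members overlapped by a peak in every list of the other marks and holds 8 copies of TGTGGT.
Fshr: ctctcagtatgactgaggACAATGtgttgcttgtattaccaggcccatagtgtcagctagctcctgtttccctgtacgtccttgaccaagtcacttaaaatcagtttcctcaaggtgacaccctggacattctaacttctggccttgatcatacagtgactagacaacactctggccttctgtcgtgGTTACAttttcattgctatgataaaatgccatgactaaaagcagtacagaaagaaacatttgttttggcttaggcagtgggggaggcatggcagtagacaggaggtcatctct
Clec12b: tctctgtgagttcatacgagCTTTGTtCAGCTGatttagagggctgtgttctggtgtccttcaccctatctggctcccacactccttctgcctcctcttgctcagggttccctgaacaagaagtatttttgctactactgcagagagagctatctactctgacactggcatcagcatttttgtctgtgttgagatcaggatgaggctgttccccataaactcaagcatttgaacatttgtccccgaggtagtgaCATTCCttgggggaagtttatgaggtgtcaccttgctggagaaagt
Myc: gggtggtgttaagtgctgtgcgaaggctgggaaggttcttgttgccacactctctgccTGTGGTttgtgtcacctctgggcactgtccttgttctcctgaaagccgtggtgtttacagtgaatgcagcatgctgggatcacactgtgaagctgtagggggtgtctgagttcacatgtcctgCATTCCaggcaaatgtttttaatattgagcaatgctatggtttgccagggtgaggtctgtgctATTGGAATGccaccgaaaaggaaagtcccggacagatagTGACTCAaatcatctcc
Fos: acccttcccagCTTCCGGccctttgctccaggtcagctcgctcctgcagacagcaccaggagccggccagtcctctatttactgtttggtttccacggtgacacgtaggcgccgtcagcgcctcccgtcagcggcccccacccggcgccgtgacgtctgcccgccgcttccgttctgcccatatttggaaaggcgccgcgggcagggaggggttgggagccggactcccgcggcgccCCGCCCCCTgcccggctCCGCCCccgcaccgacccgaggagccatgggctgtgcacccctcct
Scaf8: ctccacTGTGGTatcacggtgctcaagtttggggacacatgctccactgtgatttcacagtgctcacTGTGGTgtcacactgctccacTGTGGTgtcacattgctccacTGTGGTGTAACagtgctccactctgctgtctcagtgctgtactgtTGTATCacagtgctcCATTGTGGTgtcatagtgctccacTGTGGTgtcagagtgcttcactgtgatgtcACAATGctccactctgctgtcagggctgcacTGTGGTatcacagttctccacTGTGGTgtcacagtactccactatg

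The label "distal" rested on annotated starts alone. The members nearest to the limit were one 3003 bp from the start of Mos, the kinase of oocyte arrest (fold enrichment 4.07 in the first P7 list), and one 3020 bp from Sfi1 (3.22). The peaks just outside it lay 2999 bp from Gm21738 (3.42) and 2951 bp from Gm43311 (2.85). By position, 462 members were intergenic, 424 lay in introns, 9 in coding exons, 6 in UTRs and 7 in exons of non-coding genes. The median distance to the nearest protein-coding start was 21890 bp, with 230 members within 10000 bp and 126 beyond 100000 bp. Members lay on all chromosomes, with 25 on X and 13 on Y, and 44 lay on unplaced or unlocalized sequences, 24 of them on sequences without any transcript start. A nearest protein-coding gene could be given for all but 26 members, in total 708 genes, of which 607 had 1 member.

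Members had a median width of 457 bp. Their median H3K27ac fold enrichment was 3.66 and 3.70 in the P7 lists and 3.87 and 3.70 in the P14 lists, against 3.21, 3.24, 3.27 and 3.23 over all peaks of the same lists. The members ranged from 1.84 to 23.97 in the first P7 list. Of the 908, 465 (51.2%) had a q-value of at most 0.01 there, against 20.5% of all its peaks, and in the P14 lists 75% and 75.9% did, against 45.5% and 45.4%. The rank order of fold enrichment was shared between lists, with Spearman correlations across the 908 members between 0.47 and 0.72. The correlation is across regions, which are not replicates, and the depth of each list is unknown.

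The members differed widely in how many other marks they carried. Each was compared with the 29 lists of the other marks (27 WT and 2 dKO). Of the 908 members, 71 overlapped a peak in no other list and 212 (23.3%) overlapped a peak in all 29, while each number in between was met by fewer members. Bands of 0 to 5 lists (262 members), 6 to 23 (309), 24 to 28 (125) and all 29 (212) were set after these values were seen and serve only to describe. A peak in all 29 lists was found at 0.402% of the 747 distal peaks at P7 only (in both P7 lists and in neither P14 list), at none of the 2617 distal peaks new at P14 (in both P14 lists and in neither P7 list), and at 1.93% of the peaks in all 4 lists within 3000 bp of a start.

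**Figure D1:**
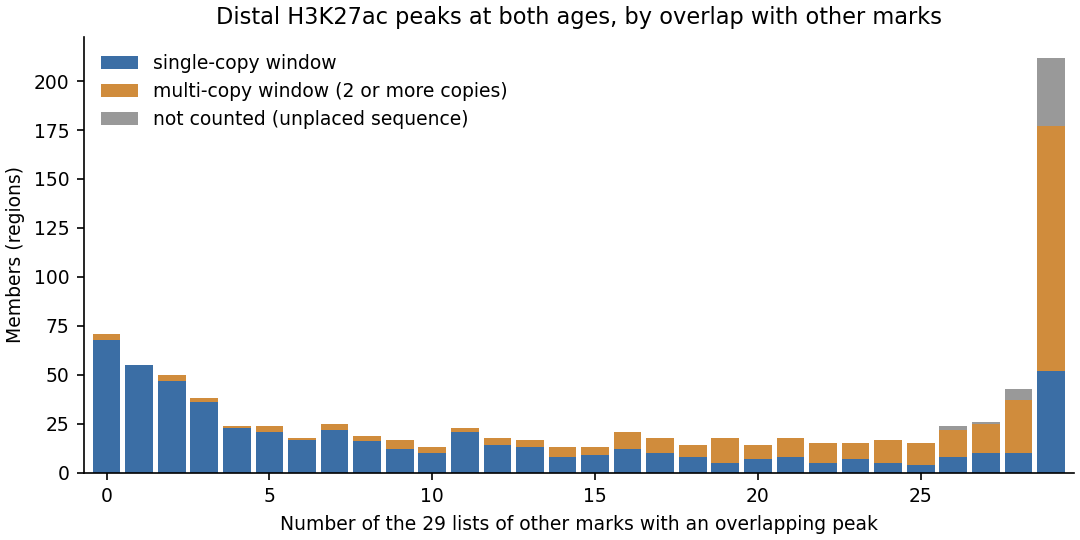
Number of members (y axis) by the number of the 29 lists of other marks in which they overlap a peak (x axis), coloured by the copy number of the 300 bp window in the GRCm38 genome. The counts are highest at both ends, with 71 members in no other list and 212 in all 29, and the right end holds mostly multi-copy windows.

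Sequence copy number went along with this split. For each window on an assembled chromosome, the copy number was the median count of its 25-mers in the genome. Of the 864 windows counted, 543 (62.8%) were single-copy and 321 (37.2%) had 2 or more copies, against 24.9% with 2 or more among the distal peaks at P7 only, 8.84% among those new at P14 and 4.50% among peaks near starts. In the band of 0 to 5 lists, 250 of 262 members were single-copy. Of the members in all 29 lists, 52 were single-copy, 125 were multi-copy and 35 lay on unplaced sequences and were not counted. Across 864 members the Spearman correlation of copy number with the number of other lists was 0.55, and across 908 members that of fold enrichment with the number of other lists was 0.60. These regions share the same lists, and the sources used here do not say how reads with several genomic positions were aligned. The part of this in the results was not tested. Results are therefore given for single-copy members too, a division added after the data were seen.

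H3K27ac was also highest at the members in all 29 lists. Their median fold enrichment in the first P7 list was 7.01, against 3.21 in the band of 0 to 5 lists. In the second P14 list the values were 4.99 and 3.64.

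**Figure D2:**
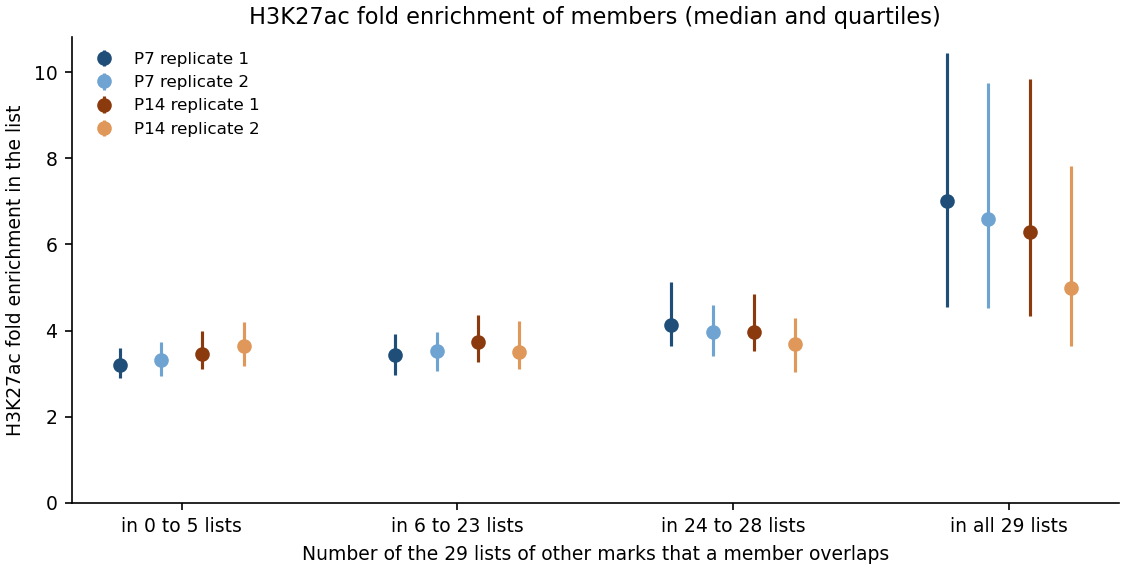
H3K27ac fold enrichment (y axis, linear) of members grouped by the number of other lists they overlap (x axis), in each of the 4 H3K27ac lists. Points are medians and bars run from the lower to the upper quartile. The members in all 29 lists sit highest in every list, with medians from 4.99 to 7.01, and the other bands have medians from 3.21 to 4.12.

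The strongest members were ranked by the lowest −log10 q of the 4 lists. The top 10 all overlapped a peak in all 29 other lists. A member 200101 bp from Rab10, a small GTPase of vesicle transport, had a fold enrichment of 20.6, 21.1, 20.9 and 20.8 in the 4 lists. An intronic member 48448 bp from the start of Chl1, a neural adhesion molecule, had 20.2, 19.5, 20.5 and 21.7 and was single-copy. Both were as high at P14 as at P7. The members nearest to A630089N07Rik and Gm14496 had windows with median 25-mer counts of 2171 and 2184, and those nearest to Cldn34d, 2010315B03Rik, Mdga2, Vps45, Gm8797 and Tcte2 completed the 10. Vps45 (a vesicle sorting protein) had 16.3, 16.1, 14.8 and 13.7.

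Members were often neighbours. At a gap of up to 10000 bp they formed 804 loci, of which 62 held 2 or more members and 166 members in all, with 15 in the richest. AC149090.1 was the nearest protein-coding gene of 16 members, none single-copy. Scaf8, which binds RNA polymerase II, was nearest to 9 members 84297 to 107630 bp away that overlapped 27 to 29 other lists, 6 of them single-copy and within 24.2 kb of each other. Gpm6a had 7 members, Zfy1 and Pdia4 had 6 each, Asmt, Gm15319, Trpm1 and Gm21119 had 5 each and Olfr161 had 4. These genes had little in common in expression. Pdia4, an endoplasmic reticulum disulfide isomerase, was at 139, 143 and 132 TPM (a length-scaled share of transcripts) in the 3 WT whole testis libraries and Scaf8 was at 49.0, 55.0 and 41.6. The olfactory receptor gene Olfr161 was listed at 0 in all 3, and Trpm1 was at 0.12, 0.51 and 0.04. All 5 members near Trpm1, a cation channel, were single-copy and overlapped 18 to 29 other lists. Among genes with single-copy members, Atg4a (autophagy) and the vomeronasal receptor gene Vmn1r2 had 4 members each, Nfia (a transcription factor) and Fos had 3 each, and Sos2 (a Ras activator) had 3 that overlapped between 1 and 29 other lists. Dnah12, an axonemal dynein gene, had 3 in 27 to 29 other lists. Vmn1r2 was listed at 0 in the 3 WT whole testis libraries and Dnah12 was at 0.04, 0.04 and 0.27 TPM.

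A repeated TTAGGG, the letters of the vertebrate telomere repeat, was looked for after it was seen in a member window. At least 3 copies in tandem on either strand were present in 30 of 864 member windows (3.47%), in 5 of 719 windows of distal peaks at P7 only (0.695%), in 4 of 2612 of those new at P14 (0.153%), in 6 of 5129 near starts (0.117%) and in none of 864 windows 10000 bp to the right of the members. The 30 members lay on 20 chromosomes, overlapped 26 to 29 other lists (26 of them all 29) and had a median fold enrichment of 15.05, and 7 were single-copy. At least 3 matches to TGTGGT, as in the Scaf8 window, were present in 60 member windows (6.94%), none of them in the band of 0 to 5 lists, and in 7.23% of windows at P7 only, 1.72% of those new at P14 and 1.27% of the shifted windows. No test was made of either search.

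Marks that the rule did not use were counted as the share of members overlapping a peak of each list. H3K4me3 was present at 49.2% and 45.4% of members in the P7 lists and at 55.9% and 50.6% in the P14 lists. H4R3me2a was at 51.5%, 51.8% and 54.5% at P7 and at 62.1%, 64.1% and 62.9% at P14. H3R2me2a was at 52.9% and 52.5% at P7 and at 64.2% and 66.7% at P14. In these 3 marks each P14 list lay above each P7 list. The same held for H3R8me2a (52.8% and 54.1%, then 59.8% and 59.1%) and H4R3me1 (58.5% and 53.6%, then 60.02% and 60.9%). For H4R3me2s the ages overlapped, with 43.6% and 48.5% at P7 and 54.6%, 47.8% and 50.9% at P14.

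None of these 6 differences could be called. The mean differences, P14 minus P7, ran from 4.41 percentage points for H4R3me1 to 10.4 for H4R3me2a and 12.8 for H3R2me2a. Two-sided exact permutation tests gave p = 0.1 for H4R3me2a with 3 lists per age, the smallest value possible there, p = 0.3 for H4R3me2s, and p = 0.333 for each of the other 4 marks with 2 lists per age, again the smallest possible, and the Benjamini-Hochberg adjusted p over the 6 exact tests was 0.333 for each. The P14 lists of H3K4me3 and of 4 of the arginine marks were also longer, with for example 16995, 18722 and 17388 peaks for H4R3me2a at P7 and 39597, 44836 and 40386 at P14. With lists of equal length the H3K4me3 difference turned to -6.50 points (exact p = 0.333) and that of H3R8me2a to -0.055 (exact p = 1.0), and those of H4R3me2a and H3R2me2a went down to 1.76 and 3.19 points and that of H4R3me1 to 1.54. The H4R3me2s difference was 4.83 points with equal lengths, with exact p = 0.1, the smallest possible, against 0.3 with the lists as deposited.

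In the 2 dKO lists, H4R3me2s was present at 44.5% and 41.9% of members, against 43.6% and 48.5% in the WT lists of the same age. The groups overlapped, and the mean difference of -2.86 points gave p = 0.667 in a two-sided exact permutation test whose smallest p was 0.333. The mark tested here is the symmetric one. The asymmetric marks had no dKO list among those analysed.

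**Figure D3:**
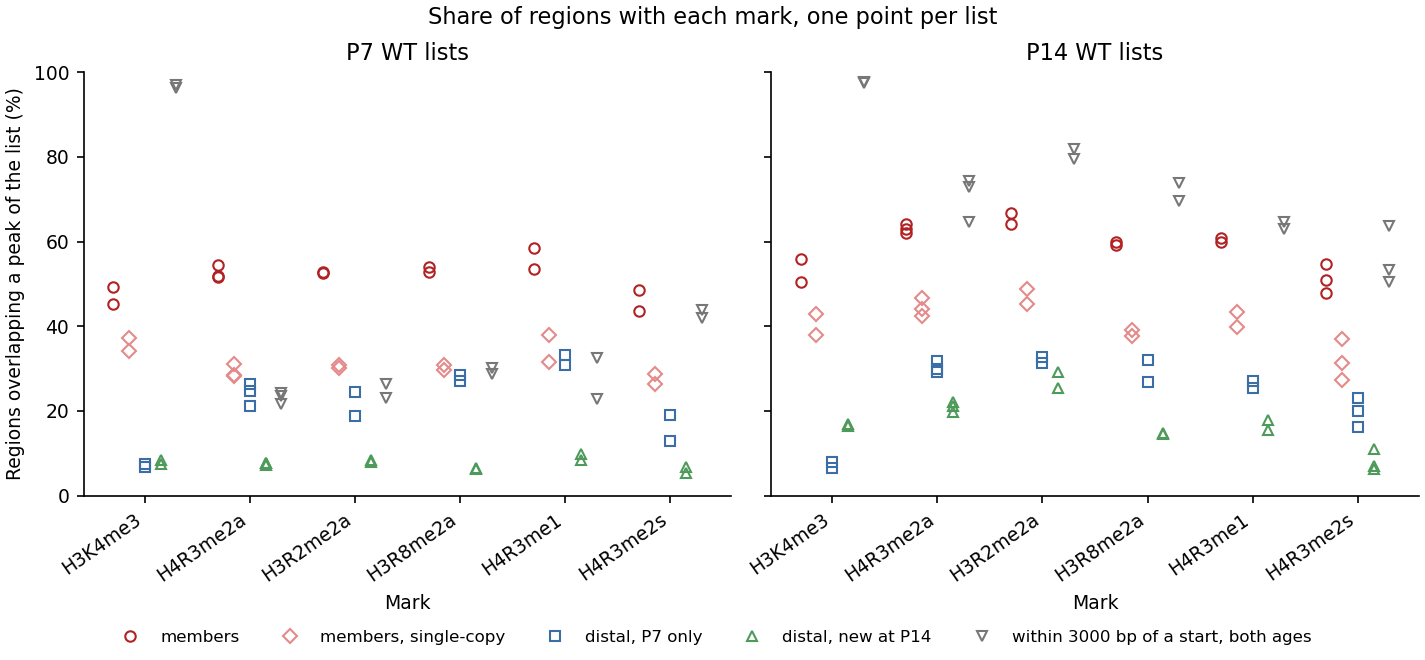
Share of regions overlapping a peak of each WT list (y axis, percent), with 1 point per list, by mark (x axis) and age (panels), for the members, the single-copy members, distal H3K27ac peaks at P7 only, those new at P14 and peaks within 3000 bp of a start at both ages. Members lie above both other distal sets in every list, and peaks near a start stand highest for H3K4me3.

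The other marks were more frequent at members than at either other distal set, in every WT list. Over the 13 P7 lists, the mean share was 51.4% for members and 21.7% for distal peaks at P7 only, a difference of 29.8 points (22.8 to 42.4 by list; higher in 13 of 13 lists; exact sign-flip permutation p = 0.000244). Over the 14 P14 lists it was 58.6% against 24.3% (34.3 points; 14 of 14; exact p = 0.000122). Against the distal peaks new at P14 the differences were 43.9 points in the P7 lists and 41.6 in the P14 lists, with exact p = 0.000244 and 0.000122. These two-sided p-values are the smallest the design allows. All lists score the same regions, so lists of 1 mark or of different marks are not independent. The p-values do not measure the spread between regions. The other distal sets were also defined by having no peak in either H3K27ac list of the other age. Regions with a peak in every list were thereby nearly kept out of them (0.402% and none, against 23.3% of members). The direction of the differences was therefore partly set by the definitions. The differences were smaller among single-copy windows or without regions marked in every list. A single-copy window can still hold repeat sequence, and in 16.4% of single-copy members at least 50% of the window was repeat-masked. Among single-copy windows the differences from the P7-only peaks were 18.3 and 25.1 points and those from the new P14 peaks 24.5 and 24.3, and without peaks found in all 29 lists they were 15.3 and 21.9, and 29.1 and 28.9. Members kept the higher share in every list under both restrictions. Membership in 4 lists also selected for higher H3K27ac, and with a q-value of at most 0.01 in the source list for both sets the differences were 32.9 and 37.3 points from the P7-only peaks and 65.6 and 58.5 from the new P14 peaks.

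H3K27ac peaks near starts carried H3K4me3 more often than members in each list. Near starts, 96.3% to 97.7% of peaks overlapped H3K4me3 in the 4 lists, against 45.4% to 55.9% of members and 34.3% to 42.9% of single-copy members. For H4R3me2a at P7, the shares near starts were 21.5% to 24.2% and those of single-copy members 28.4% to 31.1%. At P14 the order was the other way, with 64.7% to 74.3% near starts and 42.4% to 46.8% of single-copy members. The order at P7 was not shared by all arginine marks. H3R2me2a was at 23.1% and 26.4% near starts and at 30.2% and 30.9% of single-copy members, but H4R3me2s was at 42.1% and 43.9% near starts and at 26.3% and 28.7% of single-copy members, and the ranges of the sets overlapped for H3R8me2a and H4R3me1. At P14 each arginine mark was more frequent near starts in each list. For distal peaks at P7 only, H4R3me2a was at 21.3% to 26.4% at P7 and at 29.2% to 31.7% at P14. The difference between these changes was not tested.

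By H3K4me3, members fell into classes at both extremes. Of the 908, 344 (37.9%) overlapped it in all 4 lists and 313 (34.5%) in none. Arginine marks were present in all 23 WT lists at 269 members and in none at 87, and 73 members had neither H3K4me3 nor any arginine mark. Of the 344 members with H3K4me3 in all lists, 3 lacked every arginine mark. Of the 313 without H3K4me3, 73 lacked every arginine mark and 1 had them in all 23 lists. Most members without H3K4me3 thus overlapped an arginine mark in at least 1 of the 23 lists, but in any single list few did. By list, 7.72% to 17.8% of single-copy members without H3K4me3 overlapped an arginine mark at P7 and 6.18% to 24.7% at P14. Among single-copy members, 151 had H3K4me3 in all 4 lists and 259 in none. The windows of the 151 had a median GC content of 53.3% and a median CpG observed over expected ratio of 0.44, against 46.7% and 0.17 in the 259 and 62.7% and 0.79 near starts. Of the 151, 107 were intergenic and 37 intronic, while of the 259, 88 were intergenic and 163 intronic.

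The nearest protein-coding genes were moderately expressed. In the 3 WT whole testis libraries their median was 16.9, 17.8 and 16.1 TPM, against 6.06, 6.12 and 5.61 over all protein-coding genes and 37.2, 38.3 and 35.3 for genes with an H3K27ac peak near the start at both ages. The genes nearest to distal peaks at P7 only had 18.9, 19.7 and 17.3 TPM and those nearest to peaks new at P14 had 18.3, 19.3 and 17.3, which is slightly above the members' genes in each library. In the 2 sorted WT libraries the medians were 5.55 and 5.66 TPM for members' genes, 1.53 and 0.49 for all protein-coding genes, 6.09 and 5.84 for P7-only peaks, 7.80 and 7.89 for new P14 peaks and 37.6 and 35.7 for genes with a peak near the start. Genes near members stood above the median gene in all 5 WT libraries. Taken over all members they were below the genes near the other distal peaks in each library. Among single-copy windows the order turned in whole testis, with 21.6, 23.2 and 19.5 TPM for members, 21.0, 20.5 and 19.3 for P7-only peaks and 19.0, 20.01 and 17.98 for new P14 peaks. In the sorted WT libraries the single-copy values were 6.37 and 6.88 TPM for members, 6.83 and 6.65 for P7-only peaks and 8.33 and 8.03 for new P14 peaks, so the order against P7-only peaks differed between the libraries and members stayed below new P14 peaks. No test was made of these differences.

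The level went along with the number of other marks. For members in 0 to 5 other lists the nearest genes had medians of 22.5, 24.7 and 21.5 TPM in whole testis and 7.09 and 8.03 in sorted spermatogonia. For members in all 29 lists the medians were 4.79, 4.35 and 4.51 TPM in whole testis and 0.83 and 0.23 in sorted cells, below those of all protein-coding genes in each library. Multi-copy members had 8.26, 8.78 and 7.68 TPM in whole testis, below the single-copy values above. An H3K27ac peak near the gene's own start in all 4 lists was found for 45.6% of the 708 nearest genes, for 54.1% of those in the band of 0 to 5 lists, for 36.7% of those of members in all 29 lists and for 29.3% of all protein-coding genes. The shares were close to that of members' genes for genes nearest to P7-only peaks (43.8%) and to new P14 peaks (43.2%). H3K4me3 near the start in all 4 lists was found for 77.1%, 86.9%, 64.03% and 59.1%, and for 80.2% and 79.1% of genes nearest to P7-only and new P14 peaks.

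**Figure D4:**
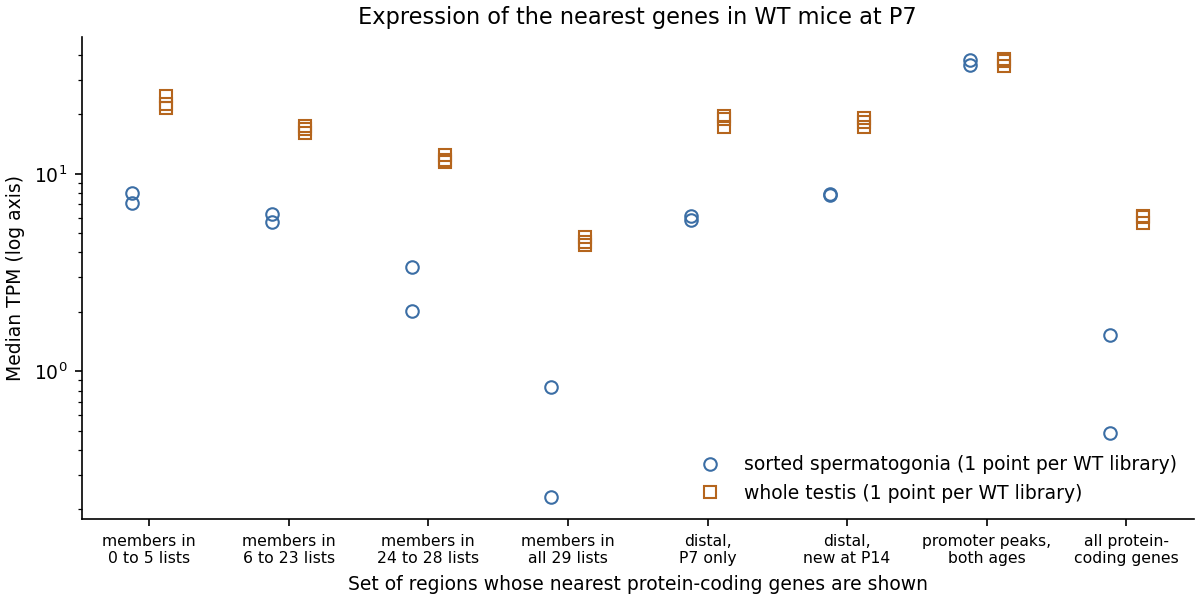
Median TPM (y axis, log scale) of the nearest protein-coding genes of each set of regions (x axis), with 1 point per WT library of sorted spermatogonia (circles) or whole testis (squares). From members in 0 to 5 other lists to members in all 29 the whole testis medians go from between 21.5 and 24.7 TPM to between 4.35 and 4.79.

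Genes of 12 lists of cell type markers and signalling pathways were looked up among the nearest genes. Of all protein-coding genes, 3.21% were nearest to a member. Of the list genes, 15 were, with 17 members. The list of ERK feedback and growth factor response genes held 7 of 28 (25%), all with single-copy members. The larger set of 2119 genes nearest to distal peaks new at P14 also held 7 of these 28, and the 667 genes nearest to P7-only peaks held 1. Sertoli cell markers held 3 of 29 (3 for P7-only peaks and 6 for new P14 peaks), spermatogonial stem cell genes 2 of 26 (0 and 6), and the Leydig cell, endothelial and TGF-beta lists 1 each of 11, 9 and 18. The lists of differentiating spermatogonia, germ cell, meiosis, peritubular myoid, macrophage and Hippo pathway genes held none. The lists were chosen with earlier results of these data known, and no enrichment test was made.

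Among the growth factor response genes, Fos, an immediate early AP-1 subunit, had 3 members 11175 to 18896 bp away that overlapped 13 to 15 other lists, with fold enrichments of 2.97 to 3.47 and 3.77 to 4.10 in the P7 lists and 4.65 to 4.94 and 3.48 to 4.55 in the P14 lists. The ranges of the ages overlapped, and the member 11175 bp away was lower in the second P14 list (3.48) than in the second P7 list (4.10). Fos was at 4.64, 6.44 and 4.86 TPM in WT whole testis and at 0.58 and 3.83 in sorted WT cells. Jun, its partner, was at 90.2, 89.0 and 87.4 TPM in whole testis and had 1 member 109056 bp away in 9 lists. The member assigned to Myc lay 341069 bp from its start, in an intron of the neighbouring non-coding gene Pvt1, overlapped 2 other lists and had fold enrichments of 4.35, 3.35, 2.90 and 5.25. Myc, a growth-promoting factor, was at 13.7, 11.7 and 11.0 TPM in whole testis and was listed at 0 in both sorted WT libraries. Mycn, its relative used by spermatogonial stem cells, was at 75.3, 73.7 and 69.7 TPM in whole testis and at 15.2 and 26.1 in sorted cells, with 1 member 288545 bp away in 2 other lists. Spry2 and Spred2, inhibitors of the ERK pathway, had 1 member each in 13 and 15 lists, 164451 and 4176 bp away, and Klf4, a zinc finger factor, had 1 in 17 lists.

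The 3 Sertoli marker genes had members with no other mark in any of the 29 lists. Fshr, the receptor of follicle-stimulating hormone, had an intronic member 22722 bp from its start, with fold enrichments of 3.35, 3.32, 3.15 and 5.45 in the 4 lists. Aard, a gene expressed in Sertoli cells, had a member 111033 bp away with 3.09, 3.804, 4.76 and 3.95, and Cdh2 (N-cadherin) had one 67426 bp away with 2.20, 2.89, 3.96 and 3.36. The values of each gene were higher in whole testis than in the sorted cells, by much less for Cdh2 than for the other genes, in assays that differ in library preparation. Aard was at 1638, 1648 and 1761 TPM against 20.4 and 35.5, Fshr was at 24.3, 27.7 and 25.1 against 0.42 and 1.10, and Cdh2 was at 31.1, 36.8 and 34.9 against 11.2 and 16.6. The summed TPM of all 29 Sertoli markers was 11558 to 12351 in WT whole testis and 754 and 958 in sorted WT cells, and those of 16 germ cell genes were 922 to 1107 and 1952 and 1965. CUT&Tag was run on strained but unsorted tubule cells, which the study counted as almost entirely germ cells at P7, and the part of Sertoli cells in the H3K27ac peaks was not tested. Lhcgr, the luteinizing hormone receptor of Leydig cells, had a member 174157 bp away in 4 other lists and was listed at 0 in both sorted WT libraries.

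Other list genes had members in more lists. The member assigned to Gfra1, the GDNF receptor of spermatogonial stem cells, lay 340985 bp from its start in 2-copy sequence, overlapped all 29 other lists and had fold enrichments of 17.5, 17.4, 13.6 and 10.2. That of Tspan8, also on the stem cell list, overlapped 28, also in 2-copy sequence. Bmpr1b, a BMP receptor, had a 3-copy member in all 29 lists.

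Prmt1 RNA was lower in the dKO libraries. In whole testis it was at 652, 604 and 638 TPM in WT and at 410, 433 and 402 in dKO, a log2 fold change of -0.49 (SE 0.13; adjusted p = 0.0334 in edgeR's quasi-likelihood test with Benjamini-Hochberg adjustment over all genes). In sorted spermatogonia it was at 350 and 239 TPM in WT and at 179 and 151 in dKO, a log2 fold change of -0.88 (SE 0.26; edgeR adjusted p = 0.133). The groups did not overlap in either assay. In whole testis, fewer cells of a type and less RNA per cell cannot be told apart.

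Few genes near members were called. A gene was called at an edgeR adjusted p under 0.05 and a change of at least 2-fold. In whole testis, 594 of the 708 nearest genes passed the filter on low counts. Of these, 14 (2.36%) were called higher in dKO, against 5.32% of all 16554 genes tested, and 10 (1.68%) were called lower, against 1.78%. The nearest genes are protein-coding, whereas "all genes" in this paragraph includes other biotypes. Of the 14730 protein-coding genes tested, 3.69% were called higher and 1.80% lower. The shares were 2.80% and 1.92% for genes nearest to P7-only peaks, and 2.51% and 1.85% for those nearest to new P14 peaks. Without WT replicate 1 or 2 the number called higher was 7 (1.16%) or 8 (1.33%), against 4.01% and 3.97% of all genes. The number called lower was 10 (1.65%) or 11 (1.83%), against 1.14% and 1.33%. The median log2 fold change was -0.09 over the 594, 0.02 over all genes and -0.0015 over the protein-coding genes tested. It was -0.12 for genes nearest to P7-only peaks and -0.09 for those nearest to new P14 peaks. In sorted spermatogonia, edgeR called 0 of 562 higher and 0 lower, as it did over all 16443 genes (0.0% in each direction). At an unadjusted p under 0.05 there were 121 of the 562 and 3911 of the 16443, and DESeq2 called 55 of the nearest genes higher (9.65% of the 570 it tested, against 7.02% of all genes) and 23 lower (4.04% against 3.79%). Without WT replicate 1 edgeR called 203 of the nearest genes higher and 67 lower (35% and 11.6%), against 29.5% and 12% of all genes in the same fit. Without WT replicate 2 it called 157 and 48 (27.2% and 8.32%), against 22.5% and 11.2%. In these fits the lone WT library was assumed to vary like the dKO pair, and the calls rose over all genes as well as over the nearest genes. In the sorted libraries, the summed TPM of 26 meiosis genes was 3513 and 3470 in WT and 1619 and 1604 in dKO, and that of 12 macrophage markers was 5.02 and 3.00 in WT and 78.8 and 69.4 in dKO. Their part in the fold changes was not tested.

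The genes called higher in whole testis included Adm, which encodes the vasodilator peptide adrenomedullin. It was at 2.32, 2.23 and 2.40 TPM in WT and at 25.5, 20.1 and 21.7 in dKO, a log2 fold change of 3.35 (SE 0.17; edgeR adjusted p = 4.07e-05). Its member lay 21042 bp away, was single-copy and overlapped 6 other lists. Dcdc2a, a doublecortin family gene, was at 0.28, 0.40 and 0.71 TPM against 2.78, 6.62 and 2.78, with a multi-copy member in all 29 lists. Gal3st2, a sulfotransferase gene, was at 1.66, 1.65 and 1.63 against 7.39, 5.65 and 5.28. Sfxn5, a mitochondrial carrier gene, was at 2.14, 2.1 and 1.93 against 4.42, 5.1 and 4.3. Celf4 (log2 fold change 1.71) and Gm21860 (1.46), which had 4 multi-copy members on the Y chromosome, completed the 6 with the largest changes among those with a mean of 50 counts or more and no overlap between genotypes. Called genes with lower counts included Gm10642 (2.7), Alpk2 (2.07), Muc3 (2.05) and Dusp26 (1.84). Of the 14, 6 had a single-copy member.

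Among those called lower was Scd2, a stearoyl-CoA desaturase, at 398, 393 and 341 TPM in WT and at 193, 106 and 167 in dKO (log2 fold change -1.14, SE 0.15, edgeR adjusted p = 0.0024). Its single-copy member lay 9104 bp away in 21 other lists. Clec12b, a C-type lectin-like receptor gene, was at 80.7, 87.8 and 99.5 against 42.7, 36.8 and 20.7 (log2 fold change -1.27), with a single-copy member in no other list. Fat1, an atypical cadherin, was at 49.2, 50.3 and 38.5 against 32.4, 12.6 and 24.1, and Dcbld2, a membrane receptor, was at 51.0, 48.0 and 42.0 against 23.9, 11.4 and 22.0. WT and dKO libraries did not overlap in these genes. Lars2, the mitochondrial leucyl-tRNA synthetase, was at 315.5, 312 and 331 TPM against 86.6, 75.3 and 76.3 (log2 fold change -1.87). Its 2-copy member lay in the Lars2 UTR and overlapped all 29 other lists. Beside these genes, the summed TPM of Sertoli markers was 11558 to 12351 in WT and 7764 to 8710 in dKO whole testis, that of 11 Leydig markers 889 to 941 and 266 to 377, that of 9 myoid markers 1003 to 1066 and 372 to 583 and that of germ cell genes 922 to 1107 and 767 to 1037. The part of these shifts in the calls was not tested. Of the 15 list genes nearest to members, none was called in either direction in whole testis. Of all protein-coding genes tested, 3.69% were called higher and 1.80% lower, and 15 genes are too few to tell 0 from these shares. With changes below 2-fold, 2 of the 15 had an edgeR adjusted p under 0.05. These were Cdh2 (log2 fold change -0.65, edgeR adjusted p = 0.0127) and Lhcgr (0.69, edgeR adjusted p = 0.0223).

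Short motifs were searched on both strands in the 300 bp windows, and a match is a description of letters, not of binding. The letters were TGANTCA for AP-1, AGATAA for GATA, CAAGGTCA for SF1 (NR5A1), TGTANC for the DMRT1 core, ACAATG or ACAAAG for SOX, CCGGAAG for ETS, CAGCTG for an E-box, TGACGTCA for CRE, CCAAT for NFY, GGGCGG for SP/KLF, AGGGGGC for the CTCF core, GGAATG for TEAD, TGTGGT for RUNX and ATGCAAAT for the POU octamer. Matches may overlap each other. Members as a whole were close to windows 10000 bp to their right for AP-1 (8.10% against 7.29%) and for TEAD (14.1% against 15.4%), SF1 (2.55% against 2.20%) and RUNX (24.2% against 21.4%), and below them for GATA (11.7% against 16.3%). The bands differed for some motifs and not for others. Members in 0 to 5 other lists had AP-1 in 16.0% (95% Wilson interval 12.1 to 21.0), GATA in 24.4% (19.6 to 29.98), TEAD in 22.9% and SF1 in 5.73% of windows. Members in all 29 lists had AP-1 in 2.82%, GATA in 5.65%, TEAD in 6.78% and SF1 in 0.565%. RUNX was at 23.3% in the first of these bands and at 25.4% in the second, with overlapping intervals. Near starts the shares were 3.802% for AP-1, 4.39% for GATA, 11.1% for TEAD and 1.40% for SF1. The intervals cover counting error only, and windows in the same locus or repeat family are not independent.

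Base composition differed between the sets too, with a median GC content of 47.0% in the band of 0 to 5 lists, 50% in members in all 29, 44.0% in the shifted windows and 62.7% near starts. The letters GGGCGG were in 7.99% of member windows, 3.82% of shifted windows and 49.95% of windows near starts. Among single-copy members they were in 23.8% of those with H3K4me3 in all 4 lists and in 5.02% of those with none, while AP-1 was in 3.97% and 15.8% and GATA in 7.28% and 20.8%. The DMRT1 letters were in 46.9% of windows in the band of 0 to 5 lists, 40.3% of shifted windows and 21.5% near starts. They were in 32.5% of all member windows and 26.0% of those in all 29 lists, both below the shifted windows. For P7-only and new P14 peaks the shares were 37.1% and 41.2%. In the windows printed above, the letters of AP-1 stand in the Myc window, those of TEAD in the Clec12b and Myc windows, and those of SP/KLF in the Fos window.

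**Figure D5:**
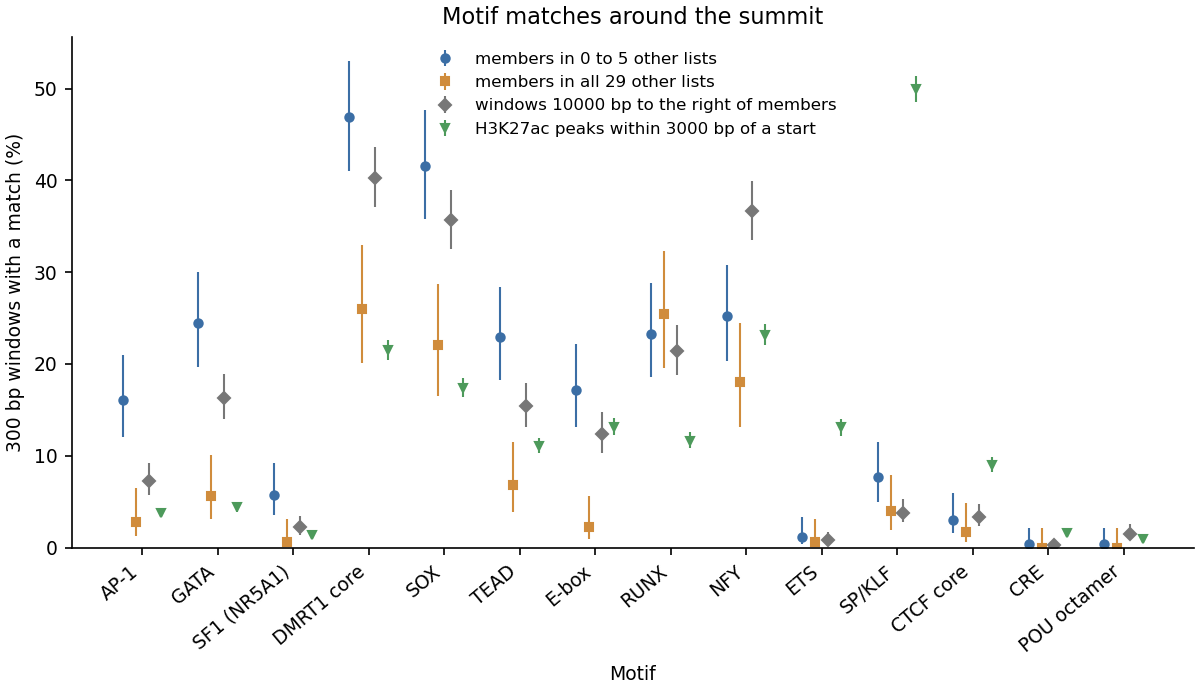
Share of 300 bp windows with a match (y axis, percent; bars are 95% Wilson intervals) for each of 14 motifs (x axis), in members in 0 to 5 other lists, members in all 29, windows 10000 bp to the right of members and H3K27ac peaks near a start at both ages. Members with few other marks have AP-1 in 16.0% and GATA in 24.4% of windows, and peaks near a start have SP/KLF in 49.95%.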

How the data were processed

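The authors deposited 1 peak table per CUT&Tag sample, called apart for each sample (MACS2 2.1.0 and fastp 0.23.2 are named in the submitters' processing notes), with each peak's fold enrichment, a ratio, and its −log10 q-value as deposited. The sources used here do not name the CUT&Tag aligner or control. For RNA, the authors deposited RSEM expected counts, TPM and FPKM per gene on mm10 (FPKM not used). Expected counts were rounded to whole numbers. Some withheld items are not reported here. The members and gene lists were chosen with earlier results of these data known. Overlap meant 1 shared bp, and starts came from GENCODE vM21. Shares were compared by exact permutation over lists. Genes were tested with edgeR 4.0.16 (quasi-likelihood, TMM, filterByExpr, no replicate block, each assay apart), with DESeq2 1.42.0 as an alternative. The overlap, copy number and edgeR steps were tested on simulated data. Genes named were the 10 nearest to the most members, the 10 strongest members, all list genes nearest to a member, up to 6 called genes per direction whose genotypes did not overlap and whose mean count reached 50, the members with the most other marks, those at the 3000 bp limit, and Prmt1. Genes with the most single-copy members were added after their values were seen. TPM pseudocounts of 1 and 0.1 were used only for means of log values. Alternatives covered overlap, q-value, distance, window, list length, gene assignment, normalization, filter, and leaving out each replicate.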

Additional observations from a re-analysis of the deposited data

Results flagged for a closer look

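A gene nearest to a member had fold changes of opposite sign in the assays, with no overlap between genotypes in either. The difference between the assays was not tested. Lars2 had a log2 fold change, dKO minus WT, of -1.87 in whole testis (edgeR adjusted p = 6.97e-05), with 10543, 11287 and 12399 counts in WT and 2727, 2653 and 2913 in dKO, and of 1.10 in sorted spermatogonia, with 5621 and 4735 counts in WT and 8759 and 8889 in dKO. The value in sorted cells did not pass the threshold (edgeR adjusted p = 0.0774).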

How the results depend on the processing

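The number of members, 908, was 518 when 50% of the peak had to be covered in each other list, 558 beyond 10000 bp from every start, 284 with a q-value of at most 0.01 in every list, 543 with single-copy windows, and 1225 to 1624 with 1 H3K27ac list left out. With lists of equal length the age difference changed direction for H3K4me3 (-6.50 points) and H3R8me2a (-0.055). The cause was not tested. Leaving out 1 list gave 3.25 to 8.65 points for H3K4me3, 11.5 to 14.0 for H3R2me2a, 5.40 to 6.72 for H3R8me2a, 1.98 to 6.83 for H4R3me1, 9.89 to 11.4 for H4R3me2a, 2.64 to 7.49 for H4R3me2s, and -5.29 to -0.441 for H4R3me2s in dKO. The differences between members and the other distal sets kept their direction under each alternative run. From the P7-only peaks they ran from 15.3 to 32.9 points in the P7 lists and from 21.9 to 37.3 in the P14 lists, and from the new P14 peaks from 24.5 to 65.6 and from 24.3 to 58.5. Their p-values were the smallest the number of lists allows and say nothing about stability.

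The median TPM of nearest genes, on average 16.95 in WT whole testis and 5.61 in sorted cells, was 0.507 and 0.0 with the nearest start of any biotype, 18.3 and 5.98 within 100000 bp, 24.6 and 14.5 for genes reaching a mean of 1 TPM, 8.19 and 1.57 for members with a q-value of at most 0.01 in every list, 21.4 and 6.62 for single-copy members, and 19.07 and 6.50 without members in all 29 other lists. With 1 library left out it ran from 16.5 to 17.4 and from 5.55 to 5.66.

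In whole testis, 7 to 15 nearest genes were called higher with 1 library left out, 7 to 15 lower, and 6 higher among genes of single-copy members. In sorted spermatogonia the ranges were 0 to 203 higher and 0 to 67 lower, and DESeq2 called 55 and 23. The causes were not tested. Same-numbered libraries did not deviate together (correlations of 0.0825, -0.221 and -0.119 in whole testis and 0.0177 in sorted cells), so they share only a number. With the replicate block, 12 genes were called higher and 12 lower in whole testis and 0 in sorted cells. The share of members with a motif moved with whole peaks or single-copy members for most motifs, for GATA from 11.7% to 15.5% and 14.9%. Overlap counts do not measure signal, and the unknown depth of the lists limits every share.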
